A study of Macaca fascicularis with 10 samples.

Results

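DLK1 and ZIM2 are imprinted genes, which means that in most tissues 1 parental copy is read and the other is silent. They were taken by name from the deposited table of allelic counts, as 2 of its 7229 genes, because nearly all their reads lay in 1 parental column. Their allelic shares are therefore given as a description, with no test. The table comes from dorsal raphe nucleus RNA, a brainstem tissue rich in serotonin neurons, of 10 female cynomolgus macaques (Macaca fascicularis). Each daughter has a labelled mother and father, and there is 1 group, with no treatment, genotype or age in the labels. Numbers 1 to 10 follow the order in which the labels list the daughters, and each daughter gives 1 paternal and 1 maternal count per gene.

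DLK1 encodes a membrane protein with EGF-like repeats that is related to the Notch ligands and can also be shed as a soluble factor. In human and mouse it is expressed from the paternal copy, in a cluster that also holds the RNA gene MEG3 and the genes RTL1 and DIO3, and it is known for restraining adipocyte differentiation. ZIM2 encodes a zinc finger protein. In human, ZIM2 and its neighbour PEG3 share a promoter and their first exons and are expressed from the paternal copy, while mouse Zim2 is maternally expressed. Imprinting of both clusters rests on DNA methylation that differs between the parental copies.

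Depth ran from 30090 allelic reads in daughter 1 to 999471 in daughter 6. The column labelled paternal held between 49.3% and 50.4% of the reads of a daughter. Among the serotonin neuron markers, TPH2, the brain enzyme that limits serotonin synthesis, had 5409 reads in daughter 6 and 41 in daughter 5, SLC6A4, SLC18A2 and DDC also had counts, and FEV was not analysed here. Of 14 measurements of that list with 20 or more reads, 13 lay between 40% and 60% paternal, against 74.5% of all measurements in the table. Reads of a gene depend on how many positions differ between the parents of that animal as well as on expression, so read numbers are not levels that can be set side by side between genes or daughters. In bulk RNA, fewer cells that express a gene and less RNA per cell cannot be told apart.

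DLK1 was read almost wholly from 1 column in each of the 5 daughters with counts, and from the paternal column in 4 of them. Daughter 3 had 71 paternal reads and 1 maternal read. Daughter 4 had 53 paternal reads and 0 maternal reads. Daughter 5 had 23 paternal reads and 0 maternal reads. Daughter 6 had the opposite arrangement, with 2 paternal reads and 113 maternal reads. Daughter 10 had 30 paternal reads and 1 maternal read. Daughter 6 thus stood apart in side, not in the strength of the imbalance, and it had the most reads of the 5. The other 5 daughters, 1, 2, 7, 8 and 9, had no DLK1 count in either column, which says nothing about expression there. Sides are those of the column labels, which the counts alone cannot check.

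ZIM2 had far more reads and was measured in 2 daughters, both with the paternal column high. Daughter 4 had 1230 paternal reads and 3 maternal reads. Daughter 5 had 2755 paternal reads and 8 maternal reads. These 2 daughters share a labelled father and no labelled mother. The other 8 daughters had no ZIM2 count. Counts in exactly 2 daughters, as for ZIM2, were found for 841 genes (11.6%), and counts in exactly 5, as for DLK1, for 754 genes (10.4%).

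**Figure D1:**
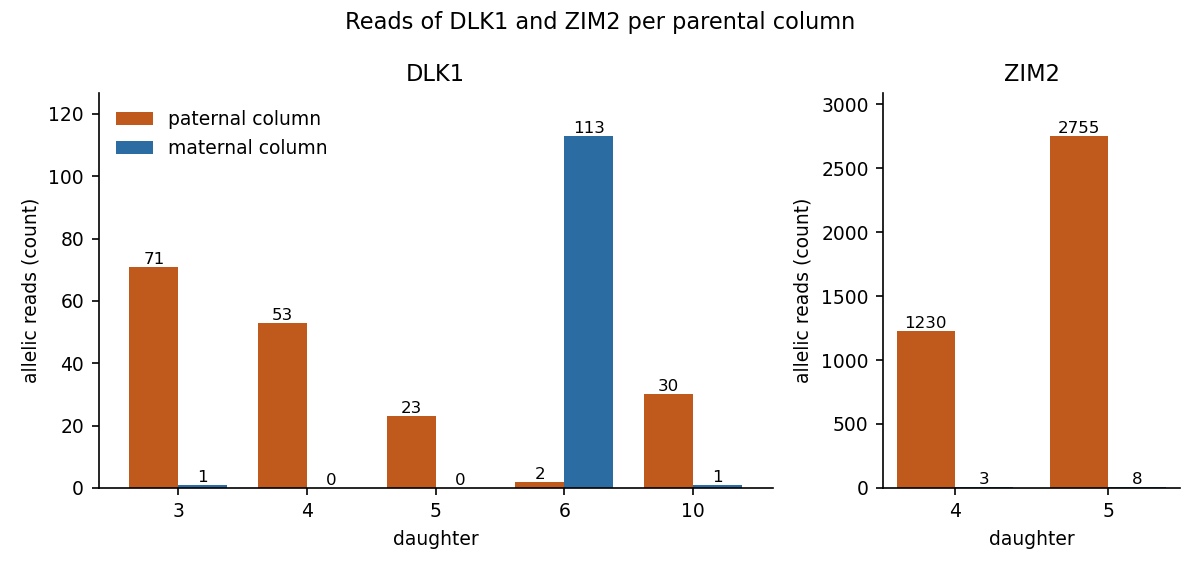
Allelic reads of DLK1 (left) and ZIM2 (right) in the paternal and maternal columns of each daughter with counts. Bars are single counts with no error, printed above each bar. DLK1 had 113 of its 115 reads in the maternal column in daughter 6 and at most 1 maternal read in daughters 3, 4, 5 and 10; ZIM2 had 1230 and 2755 paternal reads against 3 and 8 maternal reads.

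The paternal share of DLK1, the percent of its allelic reads in the paternal column, was 98.6% in daughter 3 (95% Wilson interval 92.5 to 99.8). It was 100% of 53 reads in daughter 4 and 100% of 23 reads in daughter 5. In daughter 10 it was 96.8% of 31 reads (83.8 to 99.4). In daughter 6 it was 1.74% (0.478 to 6.12). The intervals of daughters 3 and 10 overlapped, and that of daughter 6 lay below both. Reads are not independent molecules, and these intervals therefore describe counting error alone.

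Depth limits what can be said of the weaker column of DLK1. A total of 4 of 294 reads lay in the column with fewer reads, a pooled 1.36% (95% Wilson interval 0.530 to 3.45), and the mean over daughters was 1.27% ± 1.35 (SD, n = 5). The 0 maternal reads of daughter 4 allow a share of up to 5.66%, and the 0 of daughter 5 a share of up to 13.0%, taking the limit of a count of 0 as 3 reads, so a weak second allele was not detectable at this depth. The highest value, 3.23% in daughter 10, rests on a single read of 31.

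ZIM2, with more reads, gave narrower intervals than DLK1. Its paternal share was 99.8% of 1233 reads in daughter 4 (95% Wilson interval 99.3 to 99.9) and 99.7% of 2763 reads in daughter 5 (99.4 to 99.9). The maternal column held 0.243% in daughter 4 (0.0828 to 0.713) and 0.290% in daughter 5 (0.147 to 0.570). These intervals overlap, so the daughters did not differ beyond counting error. Over both daughters 11 of 3996 reads were maternal, or 0.275% (0.154 to 0.492). The origin of these 11 reads was not tested.

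The animals' pedigree adds 2 facts. Daughters 4 and 5, with the same labelled father, both had DLK1 and ZIM2 in the paternal column. Daughters 6 and 10, with the same labelled mother, had DLK1 on opposite sides, at 1.74% and 96.8% paternal. Of the 5 daughters with DLK1 counts, 4 carry the title prefix 10203 and 1, daughter 10, carries 10480, so the prefixes cannot be compared.

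Against all genes, such an imbalance was rare in any daughter. Taking each gene and daughter with at least 20 reads as 1 measurement, 364 of 22693 (1.6%) held 90% or more of their reads in 1 column, a background that includes the 7 of DLK1 and ZIM2. By animal this share was 1.07% to 1.28% in daughters 3 (1.21%), 4 (1.28%) and 5 (1.07%), 1.95% in daughter 6 and 1.87% in daughter 10. Both genes were chosen from these values, so nothing is read from their 5 of 5 and 2 of 2. Of 4368 genes with at least 20 reads in at least 2 daughters, 7 (0.16%) were past 90% in every daughter measured. These were GRB10 in 7 daughters, DLK1 in 5, FAM199X in 4, and MEST, RBM39, SDHD and ZIM2 in 2 each. Of 2352 genes with that many reads in 5 or more daughters, 2 (0.085%) were, namely DLK1 and GRB10.

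No other gene combined so empty a weaker column with as many reads as ZIM2 in daughters 4 and 5. In daughter 4, 4 of 3214 other genes had a share in the weaker column as low as that of ZIM2 or lower, all with 0 reads there, and the deepest of them had 65 reads against 1233 for ZIM2. In daughter 5, 6 of 3350 other genes did, with at most 184 reads against 2763. DLK1 was among them in both daughters, beside ABCB9, RNF128 and SYNM in daughter 4 and APBB2, MACROD2, PPP6R2, PRKCSH and SLC48A1 in daughter 5. Among 494 measurements with 1000 or more reads, 2 (0.405%) were past 90%, and these were ZIM2 in daughters 4 and 5. NDUFA1, a subunit of respiratory complex I, had 26.3% in the weaker column in daughter 4, with 1079 reads. The median over the 492 other deep measurements was 47.9%.

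For DLK1, other genes with as low a share were present in each daughter. The genes with a weaker column at or below that of DLK1 numbered 12 among 2558 others in daughter 3, 3 among 3214 in daughter 4, 5 among 3350 in daughter 5, 23 among 3070 in daughter 6 and 33 among 2566 in daughter 10. Those with more reads than DLK1 were 7 of the 12 in daughter 3, 2 of the 3 in daughter 4 and 5 of the 5 in daughter 5. They were 6 of the 23 in daughter 6 and 29 of the 33 in daughter 10.

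**Figure D2:**
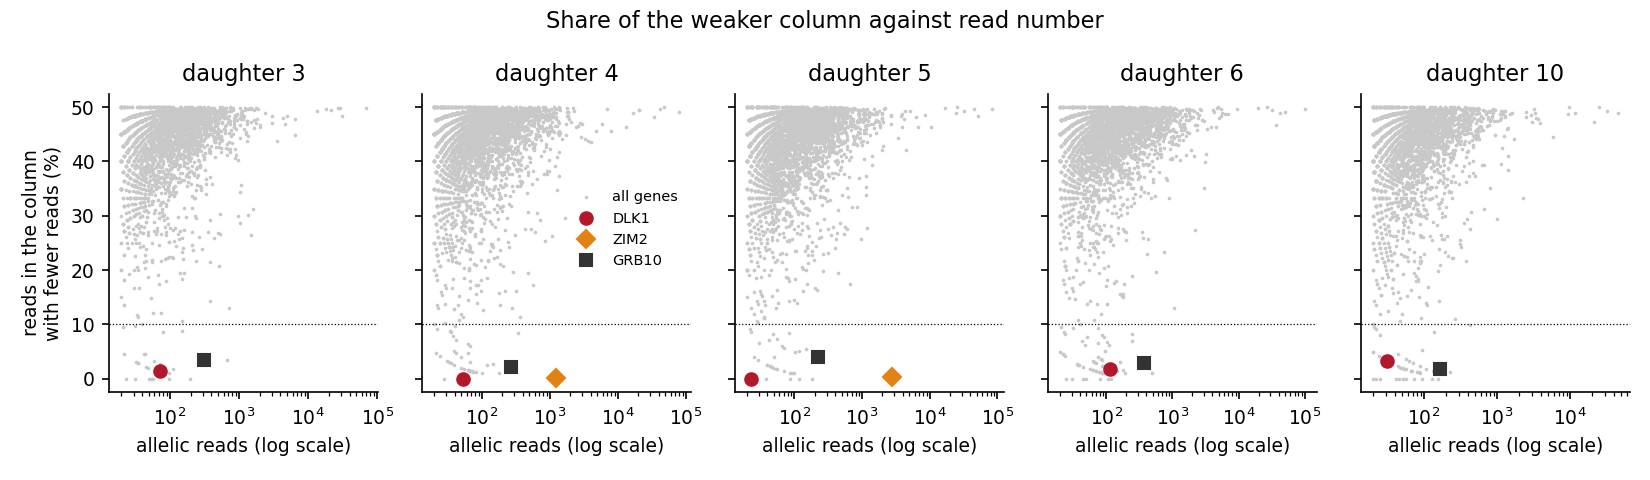
Percent of a gene's reads in the column with fewer reads, against its allelic reads (log axis), for every gene with 20 or more reads in the 5 daughters with DLK1 counts. The dotted line is at 10%. Each grey point is 1 gene. ZIM2 in daughters 4 and 5 lies at 0.243% and 0.290% with 1233 and 2763 reads, and no other gene with 1000 or more reads lies below the line; DLK1 lies between 0 and 3.23% with 23 to 115 reads.

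The side taken by DLK1 was then set beside that of other imprinted genes in the same daughter. GRB10, an adaptor of growth factor receptors whose imprinting depends on the tissue, was high in the same column as DLK1 in all 5 daughters. Its paternal share lay between 96.0% and 98.2% in daughters 3, 4, 5 and 10, and was 2.97% of 370 reads in daughter 6. MEST, a paternally expressed gene, had a paternal share of 91.3% in daughter 3 over 149 reads and of 3.09% in daughter 6 over 162 reads. In daughter 6, DLK1, GRB10 and MEST were thus all high in the maternal column. Daughter 6 was not alone in this for GRB10, which was also high in the maternal column in daughters 2 and 9, where DLK1 had no count, with paternal shares of 5.08% and 9.16%. Over its 7 daughters with 20 or more reads, GRB10 was high in the paternal column in 4 and in the maternal column in 3. COPG2, a coat protein gene next to MEST, lay in the column opposite to DLK1 where both were measured. Its paternal shares were 22.4%, 23.5% and 86.3% for daughters 3, 5 and 6. Daughters 2 and 9, with GRB10 high in the maternal column, had COPG2 at 77.6% and 87.8% paternal. Daughters 7 and 8, with no GRB10 or DLK1 count, had COPG2 at 76.1% and 78.0%. COPG2 was thus high in the paternal column in 5 of its 7 daughters, and daughter 6 was not alone in this. L3MBTL1, also paternally expressed in human blood cells, had 58.7% of 75 reads in daughter 6 (47.4 to 69.1), which includes balance. It had 47.5% in daughter 3, 74.3% of 35 reads in daughter 4, 70.0% in daughter 5 and 73.7% in daughter 10. KLHDC10, listed as maternally expressed or tissue dependent, lay opposite to DLK1 wherever both were measured. Its paternal shares were 37.8%, 36.3%, 44.7% and 68.8% in daughters 3, 4, 5 and 6. In daughter 5 its interval (35.0 to 54.7) includes balance. GNAS, of the same list, had 43.6% in daughter 4 and 44.2% in daughter 5.

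Pooled over the daughters of each gene, the weaker column was fuller in GRB10 and MEST than in the chosen pair. GRB10 had 79 of 1901 reads there, or 4.16% (95% Wilson interval 3.35 to 5.15), and MEST 18 of 311, or 5.79% (3.69 to 8.96). The interval of ZIM2 (0.154 to 0.492) lies below both. That of DLK1 (0.530 to 3.45) overlaps that of GRB10 slightly. These pools cover unlike sets of daughters. The GRB10 pool includes daughters 2 (16 of 315 reads) and 9 (23 of 251), where DLK1 had no count. In daughters 3, 4, 5 and 6 DLK1 had a lower share than GRB10, and in daughter 10 a higher one, 3.23% against 1.83%. COPG2 reached 20.7% of 536 reads and L3MBTL1 33.7% of 326. The members were chosen for this measure, so the order is given with no test.

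**Figure D3:**
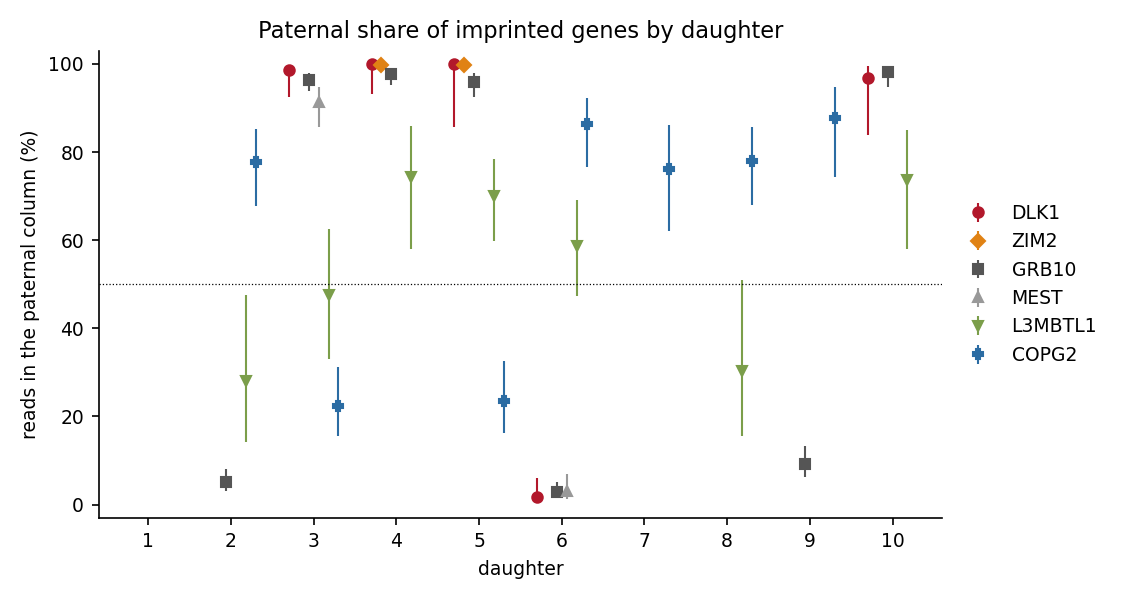
Percent of reads in the paternal column for 6 imprinted genes in each daughter where the gene had 20 or more reads. Points are single daughters, bars are 95% Wilson intervals, and the dotted line marks equal columns. DLK1, GRB10 and MEST lie below 10% together in daughter 6 (1.74%, 2.97% and 3.09%). DLK1 and GRB10 lie above 90% in the other daughters with DLK1 counts, as does MEST in daughter 3, its only other daughter. COPG2 lies on the other side wherever DLK1 was measured too.

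Across the table, the gene whose paternal share was most like that of DLK1 was GRB10. Among 1962 genes with 20 or more reads in at least 4 of the 5 daughters of DLK1, GRB10 differed from DLK1 by a mean of 2.21 percentage points over 5 daughters. The next were PITRM1 at 22.9 points, CCDC153 at 28.6, ATAD3C at 29.6 and NDUFB3 at 30.8, and the median gene differed by 49.0. For ZIM2, over its 2 daughters and 2511 genes, DLK1 was the nearest at 0.266 points, then GRB10 at 2.87, ARL6IP1 at 9.09, BMS1 at 9.17 and FAM213B at 10.1. DLK1 and ZIM2 were both chosen because nearly all their reads lay in a single column. On the same side such genes must lie close together, so their nearness was fixed by the choice. The median gap of 49.0 points to DLK1 follows from the choice too, since a balanced gene lies far from such a share. With 2 daughters that share a father, the likeness to ZIM2 is a description of those animals. In these 2 daughters ARL6IP1 had 86.4% and 94.9% paternal reads.

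The nearest measured genes on either side of DLK1 did not share its imbalance in most cases. DLK1 lies on chromosome 7 of the assembly T2T-MFA8v1.1, a build that differs from the build of the counts and serves for gene order only. Of 31 measurements of the 5 nearest coding genes with 20 or more reads on each side, a set chosen after values had been seen, 26 lay between 40% and 60% paternal and 0 lay past 90% in either column, against 74.5% and 1.6% of all measurements, so the flanking genes are described and not set apart from other genes. HSP90AA1, a chaperone gene with known processed copies, so that its reads are uncertain, had a paternal share of 53.6% in daughter 4 over 13306 reads and of 64.9% in daughter 6 over 3028 reads. TRAF3, an adaptor of immune receptors, had 44.0% to 59.3% in daughters 3, 4, 5 and 10 and 68.0% of 172 reads in daughter 6. EML1, a microtubule-associated protein gene 9 coding genes from DLK1, lay furthest from balance, with 11.9% of 84 reads in daughter 6 (95% Wilson interval 6.60 to 20.5). It had 45.5% to 55.9% in the other 8 daughters measured. EML1 was thus low in the paternal column in the same daughter as DLK1. HSP90AA1 and TRAF3 leaned to the paternal column in daughter 6, the side opposite to DLK1.

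ZIM2 has no entry under that symbol in the gene table of this assembly, so its place was taken from PEG3, on chromosome 19. PEG3 itself was not analysed here. Because human ZIM2 and PEG3 share exons, the ZIM2 row may include reads of such exons, and how they were divided between the symbols is not stated in these sources. The 5 nearest coding genes with 20 or more reads in daughter 4 or 5 were taken on each side of PEG3, also after values had been seen, and lie between 5 and 40 coding genes away on one side and between 8 and 58 on the other. Of their 13 measurements, 10 lay between 40% and 60% and 0 past 90%, near the 74.5% and 1.6% of all measurements. The zinc finger gene ZNF264, 5 coding genes from PEG3, had 40.7% paternal reads in daughter 5, over 54 reads, and ZNF805 had 42.4% in daughter 4, over 33 reads. The lowest was ZNF256, with 23.8% of 21 reads in daughter 5. None of these genes shared the high paternal share of ZIM2.

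**Figure D4:**
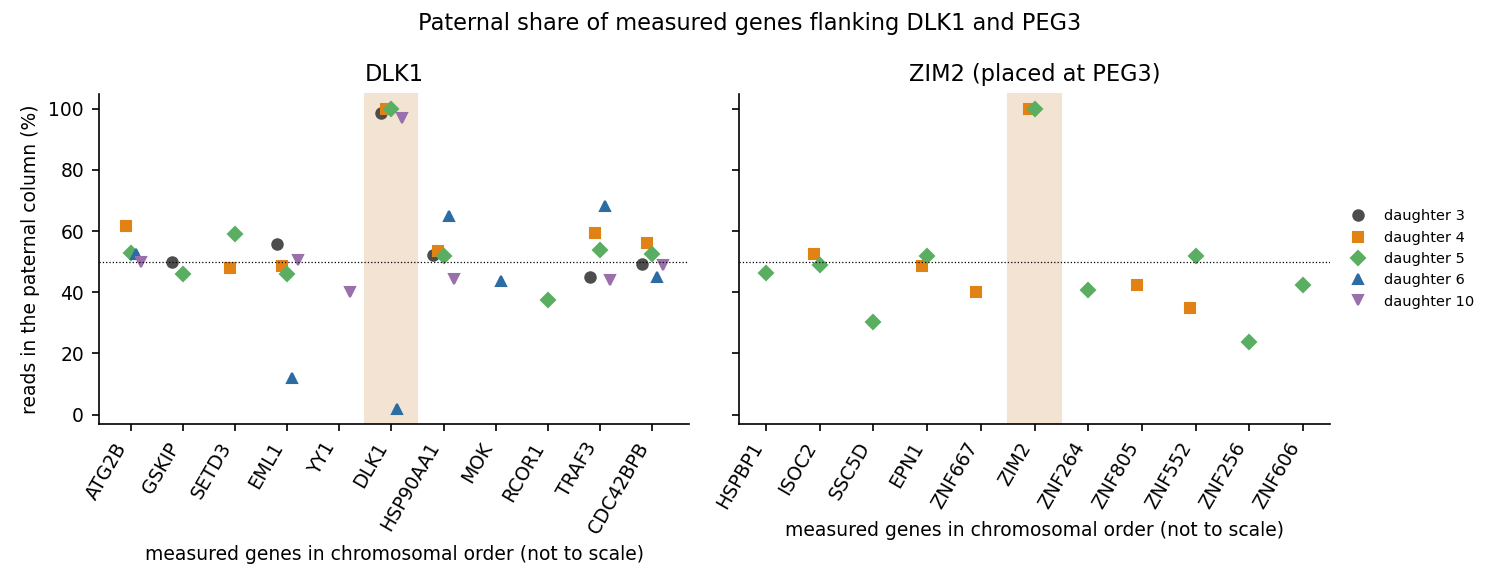
Percent of reads in the paternal column for DLK1 (left) and ZIM2, placed at PEG3 (right), shaded, and for the 5 nearest coding genes with 20 or more reads on each side, in chromosomal order and not to scale. Each point is 1 gene in 1 daughter, and the dotted line marks equal columns. Flanking genes mostly lie between 40% and 60%. Outside that range in daughter 6 are EML1 at 11.9%, HSP90AA1 at 64.9% and TRAF3 at 68.0%. Others outside it include ATG2B in daughter 4 at 61.6% and a few shallow genes such as ZNF256 at 23.8%.

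Other members of the 2 imprinted clusters were sparse. Of 9 genes listed for the DLK1 cluster, 1, DLK1, had a row, and of 6 listed for the PEG3 cluster, 2 had one, ZIM2 and ZNF264. MEG3, RTL1, DIO3 and USP29 were not analysed here. Among 24 genes known as paternally expressed, 7 had a row, and 9 of their 24 measurements with 20 or more reads were past 90% in either column, against 1.6% of all measurements. Of these 9, 7 were of DLK1 and ZIM2, which were chosen for this value, and 2 of MEST, and the maternal column was the high one for DLK1 and MEST in daughter 6. INPP5F, a phosphatase gene with a paternally expressed isoform in brain, had a paternal share of 49.4% in daughter 4 over 166 reads and of 57.5% in daughter 5 over 134 reads, where DLK1 and ZIM2 were at or near 100%.

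The genes of the Notch pathway, in which DLK1 is placed by sequence, were read from both columns. Of 62 measurements of 10 ligands and regulators, 53 (85.5%) lay between 40% and 60% paternal and 0 past 90%, against 74.5% and 1.6% of all measurements. The neuronal Notch ligand DNER had a paternal share of 53.2% in daughter 5 over 742 reads and of 49.2% in daughter 6 over 1265 reads. The contactin CNTN1, an adhesion protein reported to bind Notch, had 45.6% in daughter 4 over 4832 reads and 48.7% in daughter 6 over 6245 reads. Of 33 measurements of 6 receptors and signal genes, 29 lay between 40% and 60% and 0 past 90%. The receptor NOTCH1 had 86 paternal and 86 maternal reads in daughter 6 and a paternal share of 56.3% of 213 reads in daughter 4, and RBPJ, the DNA-binding protein of the pathway, had 45.9% of 61 reads in daughter 5. The strongest imbalance among the named ones was that of the protease ADAM17, with a paternal share of 77.9% in daughter 4 over 68 reads, against 41.2% to 52.4% in the other 4 daughters measured. The target gene HEY1 had 11 paternal and 11 maternal reads in daughter 4.

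Scaled to CPM of allelic reads, DLK1 had 111 and 115 in daughters 3 and 6, 63.1 and 62.2 in daughters 4 and 10, and 25.1 in daughter 5, a mean of 75.2 ± 37.7 (SD, n = 5). Daughters 3 and 6 were highest and daughter 5 lowest, so the daughter reversed in side was not low in reads. ZIM2 had 1467 CPM in daughter 4 and 3012 CPM in daughter 5. In daughter 4, 51 of 4710 genes with reads had more reads than ZIM2, and in daughter 5, 19 of 4813. ZIM2 thus had more in daughter 5 than in daughter 4, and DLK1 had less. The number of informative positions behind each count is not stated in these sources, so these differences cannot be read as differences in expression.

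A test that takes the columns as labelled over all daughters was run on all genes as a background. DLK1 was chosen from these counts and lies on both sides, so nothing about DLK1 is read from the calls. The edgeR quasi-likelihood test with the daughter as block called 0 of 2981 genes between the paternal and maternal columns at an adjusted p of 0.05 (percent called 0), with 93 at an unadjusted p under 0.05. DESeq2 also called 0, with 62. As a description, DLK1 had a fitted log2 paternal over maternal difference of 2.68 ± 1.81 in edgeR, and 1.07 ± 1.29 without the block. In edgeR the ± value is the size of the log2 difference divided by the square root of its F statistic. DESeq2 gave 1.74 ± 2.65, where the ± value is the SE of its fit. The ± values of edgeR and DESeq2 are thus not alike. The fitted DLK1 difference averages 4 daughters on the paternal side with 1 on the maternal side. The mean paternal share of DLK1 was 79.4% ± 43.4 over all 5 daughters (SD, n = 5) and 98.8% ± 1.53 without daughter 6 (SD, n = 4). ZIM2, with 2 daughters, did not reach the minimum of 5 daughters with 10 or more reads. Without that minimum 2 of 7227 genes (0.0277%) were called, ZIM2 and FAM199X. The log2 difference of ZIM2 was 8.27 ± 0.29, with the ± value taken from the F statistic as above. That ± value is not a spread over daughters, since ZIM2 had reads only in daughters 4 and 5, which share a labelled father. The choice of ZIM2 used these reads, so its call is no independent evidence.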

How the data were processed

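The authors deposited raw counts as whole numbers, 1 row per gene and 20 columns, a paternal and a maternal one for each of 10 daughters. Reads came from stranded, ribosomal RNA-depleted total RNA, per the labels' protocols, and Novoalign is named in the submitters' processing notes. The build in the column names is macFas5, per the file headers. No source used here states how reads were phased or filtered. Columns were matched to samples by title. The members and gene lists were chosen with earlier results of these data known. Named genes were DLK1, ZIM2, cluster members, up to 4 genes with most reads of each list and the 5 genes most like each member. Genes outside that rule were named after their values were seen.

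Shares use 20 or more reads in a daughter, with 95% Wilson intervals, and a count of 0 allows 3 reads. All genes were fitted with edgeR 4.0.16 in R 4.3.3 (glmQLFit, robust), with the daughter as block, library size summed over both columns and 10 or more reads in 5 daughters. The Benjamini-Hochberg threshold was 0.05. The fit was tested on simulated data. DESeq2 1.42.0, other read minimums, no block, TMM factors, pooled reads and leaving out each daughter were alternatives. Shares were computed in Python 3.11.15 with pandas 2.3.3 and SciPy 1.17.1 (NumPy 2.4.6), and figures drawn with matplotlib 3.10.9. A missing value was treated as no reads in that daughter.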

Additional observations from a re-analysis of the deposited data

Results flagged for a closer look

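DLK1 in daughter 6 had a paternal share of 1.74%, far from the other 4 daughters, which lay between 96.8% and 100%. EML1 in daughter 6 had a paternal share of 11.9% of 84 reads, far from the other 8 daughters, which lay between 45.5% and 55.9%. Of 32 gene measures looked at in this way, 2 stood apart, both in daughter 6, and chance alone flags about 1 in 20 groups. That rate cannot be applied to DLK1, which was chosen because nearly all its reads lay in 1 column. Its share can lie only near either end of the scale, so a daughter alone on its side is always flagged. The DLK1 flag therefore restates the side of daughter 6 and is no test.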

How the results depend on the processing

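The mean share of the weaker column in DLK1 was 1.27% and ranged from 0.782% to 1.59% when each daughter was left out in turn, and was 1.36% with reads pooled. That of ZIM2 ranged from 0.243% to 0.290%. Read minimums of 10 and 1 changed neither. The mean paternal share of DLK1 ranged from 74.3% to 98.8% with a daughter left out, the highest without daughter 6, and was 60.9% with reads pooled. Over all genes, 0.716% of measurements were past 90% with 100 or more reads, and 0.767% were past 98%, against 1.60%. Genes called between the columns numbered 2 without the filter on low counts, and 0 to 1 with a daughter left out, the 1 being TSPAN7 without daughter 4. With no replicate block 0 were called, and the log2 difference of DLK1 was 1.07 in place of 2.68; with DESeq2 it was 1.74. Without daughter 3, 4, 5, 6 or 10, DLK1 had too few daughters to be fitted. Depth limits the weaker column of DLK1, which holds 4 reads in all.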

Other observations

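FAM50B, an imprinted gene expressed from the paternal copy in human, had counts in daughter 4 alone. There 16 of 17 reads lay in the paternal column (94.1%, Wilson interval 73.0 to 99.0). These 17 reads are below the minimum of 20 used for shares, so FAM50B is not counted among the measurements. In daughter 4 DLK1 and ZIM2 were also high in the paternal column. Of the other genes known as paternally expressed, daughter 4 had L3MBTL1 at 74.3%, INPP5F at 49.4% and ZFAT at 41.2% paternal. Outside the imprinted lists, FAM199X had 6 of 345 reads in the weaker column over 4 daughters, all with the paternal column high. SDHD, a subunit of respiratory complex II, had 0 of 129 reads in the weaker column over 2 daughters, both paternal. RBM39, a splicing factor, had 3 of 74 reads there over 2 daughters, with 1 of them high in the paternal column.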
